A study of Danio rerio with 12 samples.

Results

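The Notch receptors and their Delta and Jagged ligands were followed through 12 RNA sequencing libraries of zebrafish trunk neural crest. The genes asked for were 10, namely the receptors notch1a, notch1b, notch2 and notch3, the Delta ligands dla, dlb, dlc and dld, and the Jagged ligands jag1b and jag2b. Each was matched to the deposited table by name ignoring case, or without its final paralog letter where no row carried the full name. This gave 9 of 25878 gene rows for 9 of the 10 names. The names notch1a and notch1b both led to the same 2 rows, called NOTCH1, and dla led to none.

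Notch receptors are transmembrane proteins that are activated by ligands on a neighbouring cell. Ligand binding and pulling expose the receptor to cleavage by an ADAM protease and then by gamma-secretase, which frees the intracellular domain to enter the nucleus, bind RBPJ and switch on genes of the her, hes and hey families. In the embryonic nervous system, cells with more Delta keep their neighbours from becoming neurons, and in the zebrafish trunk crest the pathway has been tied to the choice between leader and follower cells.

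All libraries came from embryos of the line sox10:H2B-Dendra2, in which the sox10 promoter drives a photoconvertible histone marker, and each held RNA of 20 sorted cells. The 4 premigratory libraries were taken at 16 hours after fertilisation, from the dorsal trunk, and the 8 migratory libraries at 24 hours, from beside somites 10 to 15. All were labelled as control and as biological replicates. Leader and follower cells were both marked at the later stage, but no label assigns a migratory library to either, so the 8 form a single group. For each population 8 embryos were photoconverted, and the labels do not say which embryos a library holds, so the p-values rest on variation among libraries, which may be technical.

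The deposited normalised values summed to between 10736000 and 21711400 in premigratory and between 17765800 and 24227300 in migratory libraries. A value of 10 or more, used here as the mark of clear signal, was reached by 3650 to 6879 genes per premigratory and 9007 to 11896 per migratory library. SOX10, whose promoter drives the marker, lay between 3769 and 16200 in premigratory and between 1225 and 22646 in migratory libraries, so it was present in all of them. Over the 13 crest marker rows the sums were lowest in premigratory replicate 1, at 7071, and migratory replicate 5, at 8844. The highest sums of their groups were 23928 and 72401. Migratory replicate 1, which held the highest migratory notch2, jag1b and jag2b, was next lowest in its group, at 11461. The other migratory libraries were at 33820 or more. In premigratory replicate 1, which held the highest notch2, crestin was at 5.97, TFAP2A at 3.30 and ETS1 at 1.94. In the same library FOXD3 was at 2522 and zeb2a at 763, the highest premigratory value of zeb2a. In libraries of pooled cells, fewer cells of a type and less RNA per cell cannot be told apart. Depth in reads is not given, and no interval for counting error could be made.

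The match by name has a weak point for dld. The only row with that name is written DLD, in the human style of the gene name table, and human DLD is dihydrolipoamide dehydrogenase, a mitochondrial enzyme unrelated to Delta. The RefSeq gene table has a gene dld of its own, and also lists that name as a synonym of dldh and of ldhd, and no row of the deposited table is called dldh. A further 2 rows are called DLL1, the human name of Delta-like 1, to which zebrafish dla and dld are both related. The tables used do not pair either row with dla or dld. DLD was therefore kept apart as a row of uncertain identity, and the 2 DLL1 rows were shown beside the members, a choice made after their names and values were seen.

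The 2 NOTCH1 rows were detected very differently. The row ENSDARG00000103554 had a value of 9624 in premigratory replicate 2, and of 263, 50.7 and 0 in premigratory replicates 3, 4 and 1. In migratory libraries it was at 5249 in replicate 4, 435 in replicate 8, 225 in replicate 6, 223 in replicate 1, 44.3 in replicate 2, 43.1 in replicate 3, 11.1 in replicate 7 and 0.633 in replicate 5. The groups overlapped over nearly the whole range, with 1 very high library in each. The other NOTCH1 row, ENSDARG00000052094, reached 10 in a single library, migratory replicate 6, at 168, and was at 6.84 or less in all others.

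The second receptor, notch2, was high in other libraries. It had values of 4645 and 289 in premigratory replicates 1 and 2, and of 9.70 and 0.981 in replicates 4 and 3. Migratory values were 1861 in replicate 1, 680 in replicate 8, 121 in replicate 3, 107 in replicate 6, 20.7 in replicate 4, 3.97 in replicate 7, 3.90 in replicate 2 and 0 in replicate 5. The highest library of notch2 was thus premigratory replicate 1, where neither NOTCH1 row had any value.

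NOTCH3 had the lowest coefficient of variation of the receptor rows over migratory libraries, 0.984. It was at 1804 in premigratory replicate 3, 13.4 in replicate 4, 3.67 in replicate 2 and 0 in replicate 1. Migratory values were 884 in replicate 7, 436 in replicate 4, 425 in replicate 6, 249 in replicate 1, 191 in replicate 2, 141 in replicate 8, 15.17 in replicate 3 and 4.89 in replicate 5. It reached 10 in 7 of 8 migratory and 2 of 4 premigratory libraries, yet its highest value was premigratory. In premigratory replicates 1, 2 and 3 a different receptor row had its highest value of the series, notch2, NOTCH1 and NOTCH3 in that order. In premigratory replicate 4 no receptor row was above 50.7, though 2 reached 10.

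**Figure D1:**
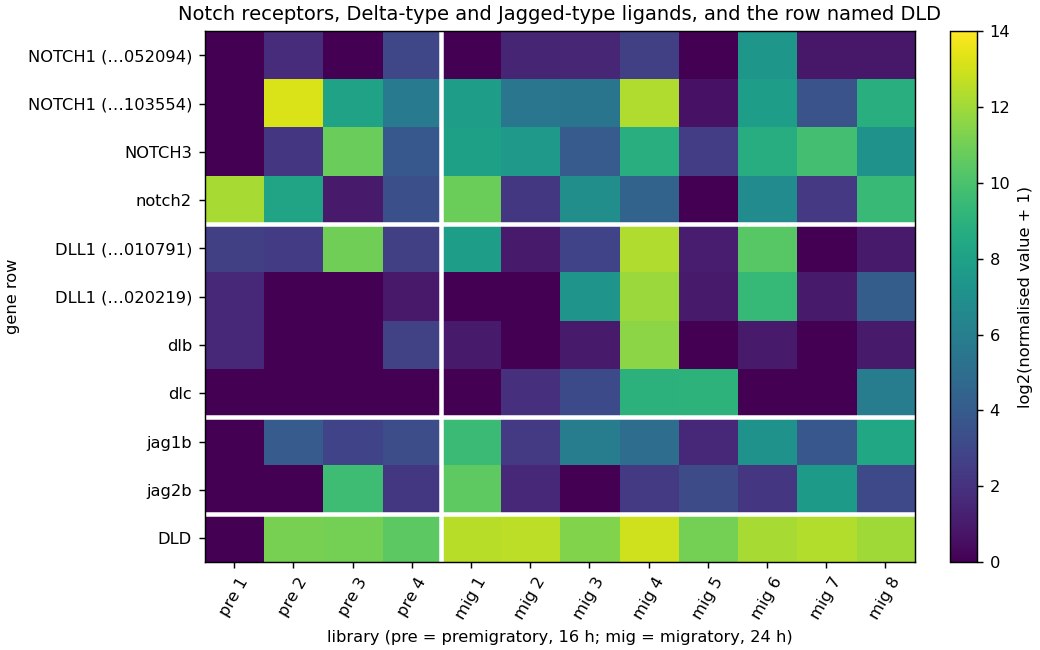
Normalised values of each gene row, as log2(value + 1) in colour, in the 4 premigratory (pre) and 8 migratory (mig) libraries; white lines part the groups of libraries and the receptors, Delta-type ligands, Jagged-type ligands and DLD. All 4 Delta-type rows are bright in migratory replicate 4, and dlb, at 3029 there, is dark everywhere else.

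The Delta ligands dlb and dlc stayed under 10 in every premigratory library and reached 10 in 1 and 3 migratory libraries. The ligand dlb was at 3029 in migratory replicate 4 and between 0 and 5.86 in all other libraries of either group, so 99.9% of its migratory sum lay in a single library. The ligand dlc, which also acts in the segmentation clock of the somites, was listed at 0 in all 4 premigratory libraries. In migratory libraries dlc was at 537 in replicate 5, 500 in replicate 4, 60.3 in replicate 8, 7.73 in replicate 3, 2.88 in replicate 2 and 0 in the other three.

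The DLL1 rows followed the same library. DLL1 ENSDARG00000010791 was at 5210 in migratory replicate 4, 1324 in replicate 6 and 225 in replicate 1, and between 0 and 5.97 in the other migratory libraries. Before migration it was at 2019 in premigratory replicate 3 and between 4.33 and 5.28 elsewhere. DLL1 ENSDARG00000020219 was at 3783, 672, 150 and 16.8 in migratory replicates 4, 6, 3 and 8, and at 1.98 or less in every other library. Migratory replicate 4 was therefore the only library with all 4 Delta-type rows at 10 or more, and premigratory replicate 3 the only premigratory library with any. The endothelial and tip cell ligand dll4, which is no member, also had its highest value, 1094, in migratory replicate 4, against 37.8 or less in all others.

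Jagged ligands had a different leading library. The ligand jag1b, known for patterning the zebrafish face, was at 15.4, 9.05, 6.06 and 0 in premigratory replicates 2, 4, 3 and 1. Its migratory values were 752 in replicate 1, 334 in replicate 8, 146 in replicate 6, 60.9 in replicate 3, 31.1 in replicate 4, 13.1 in replicate 7, 4.1045 in replicate 2 and 2.10 in replicate 5. So 5 migratory libraries lay above every premigratory one, and the other three overlapped with them. The ligand jag2b was at 1498 and 195 in migratory replicates 1 and 7 and at 799 in premigratory replicate 3, and at 8.60 or less in all 9 other libraries.

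The row named DLD varied less over migratory libraries than the other 8 rows. It was at 0 in premigratory replicate 1, and at 2222, 2171 and 1437 in premigratory replicates 2, 3 and 4. In migratory libraries it was between 2173 and 8217, with a median of 4936. Its highest value was in migratory replicate 4, like those of dlb and both DLL1 rows. It was the only row of the 9 at 10 or more in every migratory library, as were 29.8% of all tested genes. Its coefficient of variation over migratory libraries was 0.406, against 0.984 to 2.82 for the other 8 rows and a median of 1.03 over all tested genes.

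No receptor or ligand row passed the test between the stages. Migratory libraries were compared with premigratory ones by limma on log2(value + 1) over the 12122 genes that reached 10 in 4 libraries or more, with Benjamini-Hochberg adjustment over all of them and a threshold of 0.05. Of these genes 12.4% were called higher and 0.132% lower, and all migratory libraries lay above all premigratory ones for 4.83%. Of the 9 rows 5 were tested, 0 were called higher, 0 lower, and 0 had separated groups. At an unadjusted limma p under 0.05 the count was 1, the row DLD. Of the 12122 tested genes 3850 were higher and 80 lower at that threshold. The other 4 rows, dlb, dlc, jag2b and NOTCH1 ENSDARG00000052094, reached 10 in fewer than 4 libraries. Fitted without the filter they had adjusted p-values of 0.385 to 0.864 in limma.

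The fitted changes had wide intervals. At the median of the 12122 genes the log2 fold change stood at 2.67, and a change is read against that shift. The shift depends on the settings, being 0.94 without the filter and 1.68 with a pseudocount of 10. Any 4 of the 8 migratory libraries can pass a gene through the filter, but premigratory libraries alone only if all 4 reach 10. NOTCH1 ENSDARG00000103554 had a log2 fold change of -0.24 (SE 2.38, limma adjusted p = 0.956), with a 95% interval from -5.26 to 4.78. For notch2 it was -0.82 (SE 2.35, adjusted p = 0.835), and for NOTCH3 2.85 (SE 2.03, adjusted p = 0.338). Without premigratory replicate 3, its highest library, NOTCH3 had 5.05 (adjusted p = 0.113), and without premigratory replicate 1 it had 1.44. The ligand jag1b had 2.94 (SE 1.69, adjusted p = 0.229) and an interval from -0.63 to 6.51. DLD had 3.96 (SE 1.60, adjusted p = 0.105), and 1.23 without premigratory replicate 1, where it was at 0. Of the DLL1 rows ENSDARG00000010791 had -0.12 (SE 2.51, adjusted p = 0.979) and ENSDARG00000020219 3.70 (SE 2.12, adjusted p = 0.229). The intervals of NOTCH1, notch2, NOTCH3, jag1b and both DLL1 rows held 0 as well as the shift of all genes, so no direction of change was distinguishable. For NOTCH1, notch2 and DLL1 ENSDARG00000010791 they held both a rise and a fall of several log2 units. For NOTCH3, jag1b and DLL1 ENSDARG00000020219 they held a rise of several units, with lower ends at -1.44, -0.63 and -0.78.

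**Figure D2:**
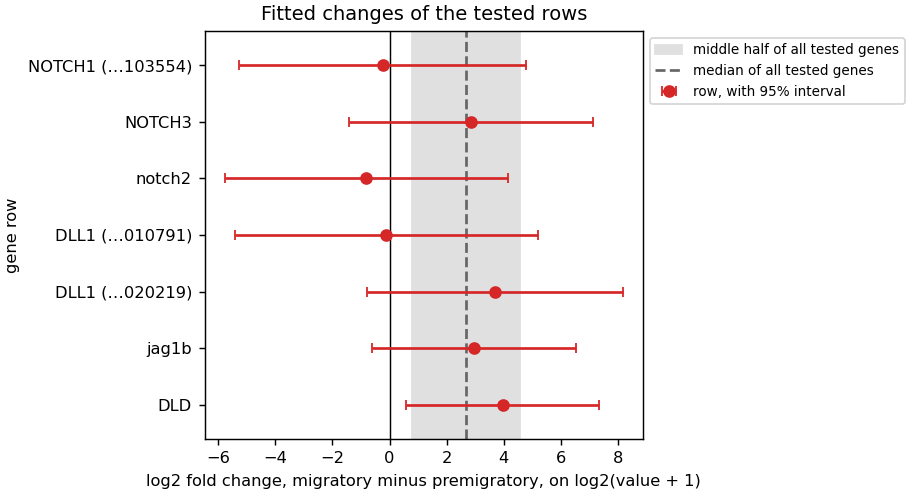
Fitted log2 fold change (migratory minus premigratory, on log2(value + 1)) of the 5 tested member rows and the 2 DLL1 rows, with 95% intervals from limma. The dashed line is the median of all 12122 tested genes, 2.67, and the grey band holds the middle part of them, from 0.80 to 4.56; all intervals but that of DLD cross 0.

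The libraries carry a number that the labels also call a batch, and numbers 1 to 4 occur in both groups. Within these numbers the difference in log2(value + 1) of NOTCH1 ENSDARG00000103554 was 7.81, -7.73, -2.58 and 6.67. For notch2 it was -1.32, -5.89, 5.95 and 1.02, and for NOTCH3 7.97, 5.36, -6.80 and 4.92. For jag1b it was 9.56, -1.68, 3.13 and 1.67. Each of these rows changed direction between numbers, whereas DLD was higher in the migratory library of all 4. With the number as a fixed replicate block, where only numbers 1 to 4 inform the difference between stages, 0 genes were called in either direction. As a random block, with a correlation of 0.0175, the number left 1543 genes called higher and 17 lower. No member row was called with either block.

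The migratory signal of most rows lay in few libraries. Among the 8 member rows other than DLD, 37.7% to 99.9% of a row's migratory sum lay in its highest library, with a median of 75.4%, against a median of 35.7% over all tested genes. The highest library was replicate 4 for NOTCH1 ENSDARG00000103554 and dlb, replicate 1 for notch2, jag1b and jag2b, replicate 5 for dlc, replicate 6 for NOTCH1 ENSDARG00000052094 and replicate 7 for NOTCH3. Rows that fail the filter on low values are rows seen in few libraries, so this comparison with tested genes describes the rows and supports nothing about Notch genes as a class.

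Counted over the 8 rows and the 2 DLL1 rows, between 1 and 4 of 10 reached a value of 10 in premigratory libraries and between 1 and 8 in migratory ones, with medians of 2.5 and 5.5. Over all 25878 genes the medians at 10 or more were 5713 and 10857, so detection rose for genes in general too. Migratory replicate 4 held 8, replicate 6 held 7, and replicates 1 and 8 held 6 each. Replicate 3 held 5, replicate 7 held 4, replicate 2 held 2 and replicate 5 held 1, dlc. The number of all genes at 10 or more in migratory replicate 4 was 9184, below the migratory median of 10857. This library thus had the most Notch rows but not the most genes. Both DLL1 rows, added after their values were seen, are among its 8. Over the 9 rows matched by name, DLD included, it held 7, against 6 in each of replicates 1, 6 and 8. In migratory replicate 5, where none of the receptors reached 10, 9007 genes did.

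**Figure D3:**
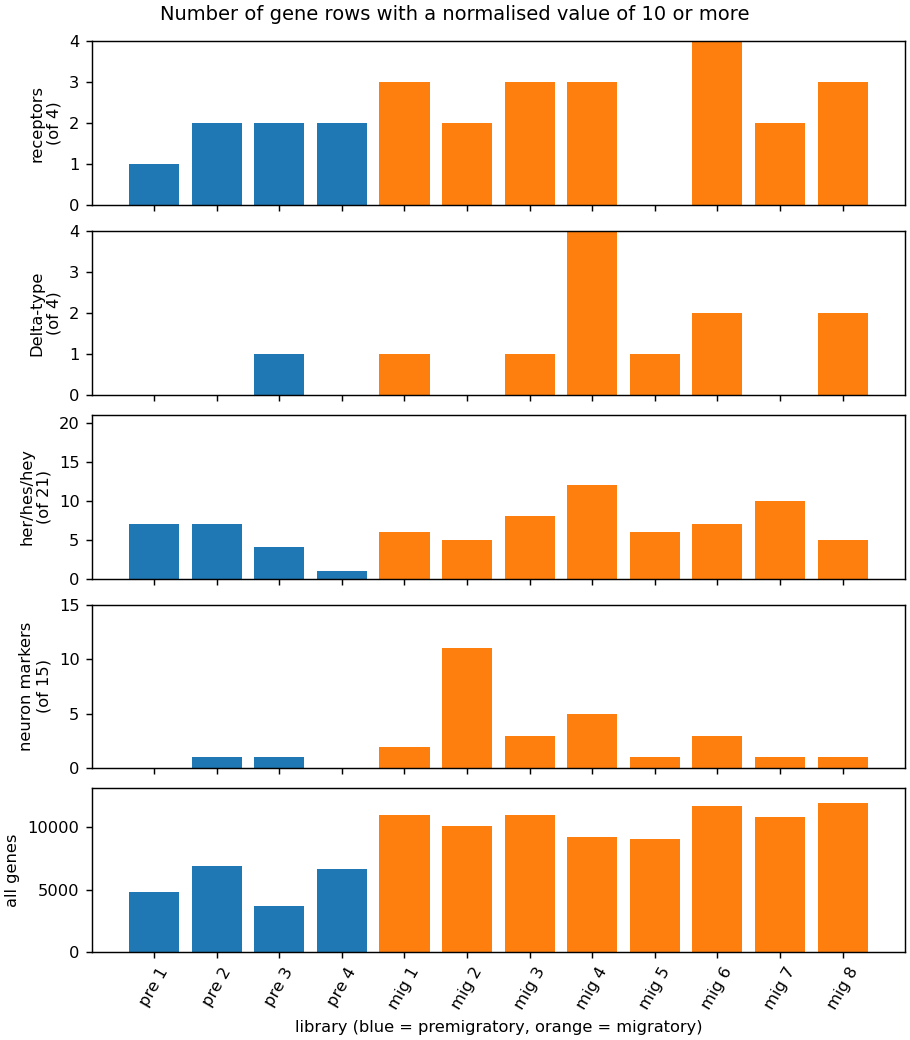
Number of gene rows with a normalised value of 10 or more in each library, from top to bottom for the 4 receptor rows, the 4 Delta-type rows, 21 her, hes and hey rows, 15 neuron marker rows and all genes; blue bars are premigratory and orange bars migratory libraries. Delta-type rows peak at 4 of 4 in migratory replicate 4, and neuron markers peak at 11 of 15 in migratory replicate 2, which has 0 Delta-type rows.

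Markers of other cell types differed strongly between the libraries in which members were high. Of 15 rows of the neuron list, 11 reached 10 in migratory replicate 2 and 5 in migratory replicate 4, against 0 to 3 in all others. Its summed value ran from 29.0 to 7732 before migration and from 118 to 43936 after it, with 18545 in migratory replicate 4. The rows at 10 or more overlapped in part. In replicate 4 the proneural factors ascl1a and NEUROD4 stood at 2590 and 3271 and the early neuronal RNA-binding protein ELAVL3 at 12599, while gap43 was at 2.00 and the proneural neurog1 at 3.92. Replicate 2 had ELAVL3 at 13148, with NEUROD4 at 494 and neurog1 at 375. There ISL1, ELAVL4 and gap43, genes of differentiating neurons, were at 6286, 4499 and 5674, while ascl1a was at 0 and the 4 Delta-type rows were at 2.88 or less. Neural progenitor markers summed to 8159 in migratory replicate 4, the highest of the series, and to 6.84 to 6458 in premigratory libraries and 32.5 to 4292 in the other migratory ones, with SOX3 at 4427 and SOX2 at 3.21 in replicate 4. The part of neural cells in the Delta values was not tested. The 13 crest marker rows summed to 53829 in replicate 4, close to the migratory median of 52662, with MITF ENSDARG00000003732 at 5.68 and crestin at 16239.

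The highest notch2 values stood in libraries with high epidermis markers. Epidermis markers summed to 1322630 in premigratory replicate 1, 477754 in migratory replicate 8 and 398983 in migratory replicate 1, the same 3 libraries that held the highest values of notch2. All 10 epidermis rows were at 10 or more in premigratory replicate 1 and migratory replicate 8. Premigratory replicate 4, with a sum of 240722, had notch2 at 9.70, and the lowest sum was 168 in migratory replicate 5. The sum of somite and muscle markers ran from 628 to 3794 before and from 1210 to 668231 after migration, with the highest in migratory replicate 1, where jag1b and jag2b peaked. In that library actc1b alone was at 534386, and the somite marker tbx6 was at 0. Migratory replicates 8 and 6 had the next highest muscle sums, at 295401 and 295097, and the next highest jag1b, at 334 and 146. Their jag2b was at 7.41 and 3.73. Migratory replicate 7, with jag2b at 195, had the lowest migratory sum. Migratory replicate 2, with a sum of 253747, had jag1b at 4.1045 and jag2b at 1.91. Blood markers summed to 1803110 in migratory replicate 5, the library without receptor signal and with the highest dlc, against 11.6 to 10702 in premigratory and 20.5 to 19976 in the other migratory ones. Endothelial markers summed to 477 to 47621 and 6.21 to 2286. Premigratory replicate 1 and migratory replicate 5 had the highest sum of each group, with SOX7 alone at 47616 and FLI1 alone at 2263. In both libraries kdrl was at 0. The part of these cells in the values of the members was not tested.

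The machinery that cleaves and transmits Notch was called about as often as genes in general. Of 21 rows for enzymes and nuclear partners of the pathway 17 were tested, 2 were called higher and 0 lower, against 12.4% of all tested genes called higher, with a median log2 fold change of 2.32, just under that of all genes. ADAM17 is a protease that can cut Notch and many other surface proteins. Its row ENSDARG00000043213 had a log2 fold change of 6.48 (SE 1.68, limma adjusted p = 0.0213). It was at 0 to 2.70 in premigratory libraries and at 4.06 to 1413, with a median of 213, in migratory ones, without overlap. This row reached 10 in 7 migratory and 0 premigratory libraries, so it passed the filter through the migratory group alone. The other ADAM17 row, ENSDARG00000093093, reached 10 in 2 migratory and 0 premigratory libraries and was not tested. The proteases adam10a and adam10b had log2 fold changes of 4.00 and 3.39 and were not called (limma adjusted p = 0.120 and 0.170). PSEN2, a catalytic subunit of gamma-secretase, had 1161, 6.60, 0 and 0.983 in premigratory replicates 1 to 4 and 116 to 3816, with a median of 1526, in migratory libraries (6.84, SE 1.79, adjusted p = 0.0225). PSENEN, another gamma-secretase subunit, had a log2 fold change of 4.46 (adjusted p = 0.106) and did not pass. The 2 RBPJ rows, for the DNA-binding partner of Notch, had log2 fold changes of 3.42 and -0.15 (adjusted p = 0.279 and 0.973).

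Among 30 rows for proteins that tune ligands or receptors 24 were tested, 1 was called higher and 0 lower. Of all tested genes 12.4% were called higher. The median log2 fold change of these rows was 3.33, against 2.67 for all tested genes. The called gene was NEURL1B, a ubiquitin ligase of the neuralized family that acts on ligands (log2 fold change 6.33, SE 1.68, limma adjusted p = 0.0238). It was at 1.63 or less before migration and at 5.61 to 1570 after it, without overlap. NEURL1B reached 10 in 6 migratory and 0 premigratory libraries, so it too passed the filter through the migratory group alone. MIB1, the ligase that Delta needs for signalling, was at 3606 in premigratory replicate 2 and 3.42 or less in the other premigratory libraries, and between 264 and 3518 in all migratory ones (5.67, adjusted p = 0.0649). NRARP, a feedback inhibitor that Notch itself induces, had in its row ENSDARG00000091419 a log2 fold change of 5.31 (limma adjusted p = 0.0567). Its other row, ENSDARG00000018958, had -0.003 (adjusted p = 0.999). The corepressor CTBP1 had 6.21 in ENSDARG00000019213 (adjusted p = 0.0545), but 0.97 in its other row, ENSDARG00000057007 (adjusted p = 0.472). LFNG, a sugar transferase that alters the response of Notch to its ligands, stood at 22809 in migratory replicate 6, 12427 in replicate 8 and 8045 in replicate 4, but at 2.15 in replicate 5. Without premigratory replicate 3 all 3 calls of both lists were lost, with log2 fold changes of 6.15 for ADAM17, 5.66 for PSEN2 and 6.05 for NEURL1B. PSEN2 also lost its call without premigratory replicate 4 (adjusted p = 0.0521) and NEURL1B without premigratory replicate 1 (adjusted p = 0.0507), and ADAM17 and NEURL1B lost theirs with a pseudocount of 10 (adjusted p = 0.0700 and 0.0795). Without premigratory replicate 2 or migratory replicate 5 there were 7 and 6 calls. Of the 5 further ligand rows dll4 alone was tested (log2 fold change 1.25, SE 1.61, adjusted p = 0.615).

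The her, hes and hey genes, families that include targets of Notch, also varied widely between libraries. Of 21 rows 10 were tested and none was called, against 12.4% of all tested genes called higher and 0.132% lower. The median log2 fold change of these rows was 0.85, against 2.67 for all tested genes. The her4 genes, targets of Notch in the nervous system, lie in near-identical copies between which reads can be split. Of these, her4.4 was at 1061, 2084, 777 and 0 in premigratory replicates 1 to 4, and at 2481 in migratory replicate 4, 238 in replicate 5 and 74.5 or less in the other migratory libraries (log2 fold change -3.06, SE 2.37, limma adjusted p = 0.382). In migratory replicate 4 her4.2 was at 4827, her4.5 at 3110, her15.1 at 3093 and her15.2 at 3751, each the highest value of the migratory group, and 12 of 21 rows reached 10 there.

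The list summed to 25724 in that library, 15853 and 15031 in premigratory replicates 1 and 2, and 1120 to 3116 in the other 7 migratory libraries. Premigratory replicates 1 and 2, next in order by this sum, had none of the Delta-type rows above 5.26, and were the libraries with the highest notch2 and NOTCH1 values. HEY1, a target known from vessels, was at 4341 in premigratory replicate 1 and 797 in migratory replicate 5, and at 10.4 or less elsewhere. The clock genes her1 and her7 stayed under 10 in every library. HES6 in ENSDARG00000019335, a family member that opposes other hes proteins in mammals, had the smallest p of the list (log2 fold change 5.95, SE 2.10, adjusted p = 0.069), with values up to 2.97 before migration and up to 2457 after it. For her15.2 and her2 the adjusted p was 0.184 and 0.303.

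**Figure D4:**
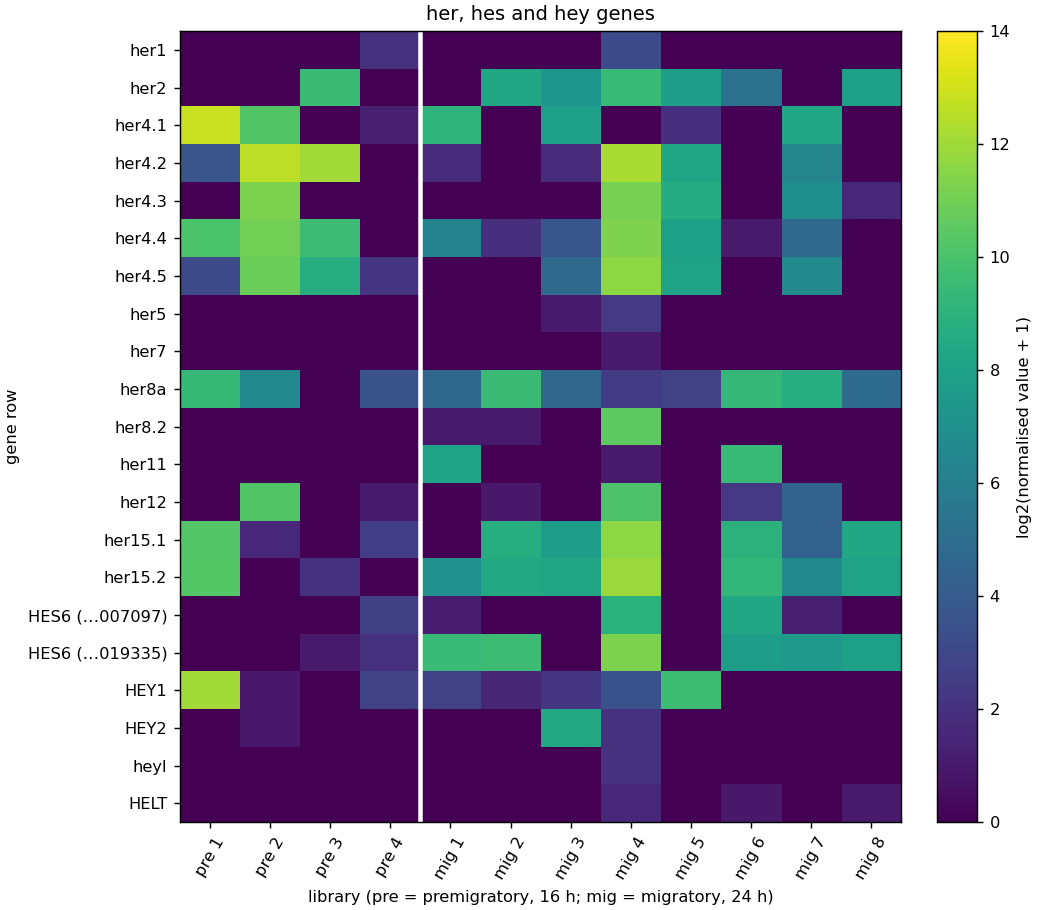
Normalised values of 21 her, hes and hey rows, as log2(value + 1) in colour, in the 4 premigratory (pre) and 8 migratory (mig) libraries, parted by the white line. The column of migratory replicate 4 is bright from her4.2 to her4.5 and for her15.1 and her15.2, and premigratory replicate 4 is dark for all rows but her8a, at 10.9.

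The genes most like each tested row were sought by the root mean square difference of log2(value + 1) over the 12 libraries, after subtracting each row's mean. For DLD these were PRELID1 and PTP4A1, at 0.68 and 0.72 log2 units. For jag1b they were ggt1l2.1 and RAB33B at 1.06 and 1.102, and for NOTCH3 ENC1 and FAM117A at 1.69 and 1.81. For NOTCH1 ENSDARG00000103554 they were APBB2 and EPB41L2 at 1.74 and 2.08, and for notch2 ftr83 and COG1 at 1.88 and 1.93. The nearest rows of the DLL1 pair were PRCP at 1.59 and ENTPD1 at 1.75 for ENSDARG00000020219, and si:dkeyp-107f9.4 at 2.73 and slc36a4 at 2.80 for ENSDARG00000010791. The search left out the members, the DLL1 rows, untested rows and rows that share a symbol. A member could thus not be nearest to another member. None of the nearest rows came from the other Notch lists, of which untested rows and rows that share a symbol could not appear.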

How the data were processed

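RNA of 20 sorted cells per library was amplified with SMART-Seq v4 chemistry and made into Nextera libraries, per the labels' protocols. The submitters' processing notes name fastp 1.0, Salmon and GRCz11. Each deposited value is a signal per gene that the authors normalised from counts, as the table is named. How they normalised, annotated and filtered is not given in the sources used here. The numbers were not whole, so no model for counts was run. No molecular identifiers are mentioned, so copies made by PCR cannot be set apart. Of 25878 identifiers 23604 had a symbol. The number of columns left out was 0.

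Values were tested with limma 3.58.1 in R 4.3.3 (lmFit, then eBayes with trend) on log2(value + 1), which understates changes of low genes, over genes at 10 or more in at least 4 libraries, with Benjamini-Hochberg adjustment, and the script was tested on simulated data. Tables and figures used matplotlib 3.10.9, pandas 2.3.3 and numpy 2.4.6 under Python 3.11.15. Members, gene lists and alternatives were chosen with earlier results of these data known. All member rows are named, and from each pathway list the called rows and the 4 of smallest p, of which 1 is not reported here; other rows were named after their values were seen. Of the pathway lists, 73 of 81 names were matched.

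The shared library numbers, labelled as batch, were treated as pairs for numbers 1 to 4 in the differences within numbers. They entered fits as a block only in alternatives, and the main fit ignored them. After subtracting group means, same-numbered libraries correlated at 0.155, 0.0118, 0.0424 and 0.0342. Libraries of different numbers correlated at -0.0924 to 0.123, a range that number 1 exceeded. For premigratory replicates 1, 3 and 4 the same-numbered migratory library had the highest correlation, in replicate 3 by 0.0424 against 0.04. For premigratory replicate 2 it did not, with 0.0937 in migratory replicate 6. All these values are small, and they do not settle whether the numbers mark pairs. Alternatives covered pseudocount, filter, scaling, weights, the replicate block and left-out libraries.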

Additional observations from a re-analysis of the deposited data

Results flagged for a closer look

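A library standing apart from the rest of its group was looked for in 22 groups of values on the log2(value + 1) scale, for 11 rows in each stage, where the gap to the next library had to exceed a critical share of the range. The critical share is set so that chance flags about 1 in 20 groups of normally distributed values. Many of these values lie at or near 0, so that rate need not hold here. The ligand dlb was apart in migratory replicate 4, at a value of 3029, with a gap of 0.914 of the range. NOTCH1 ENSDARG00000052094 was apart in migratory replicate 6, at 168, with a gap of 0.641. DLD was apart in premigratory replicate 1, at 0.0, with a gap of 0.943, and DLL1 ENSDARG00000010791 was apart in premigratory replicate 3, at 2019, with a gap of 0.972. Both groups flagged in the premigratory stage have only 4 libraries. No cause was tested.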

How the results depend on the processing

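No member row was called under any of the 22 alternatives. Against 1508 genes higher and 16 lower, a pseudocount of 10 gave 821 higher, no filter 851 and 7, a filter of 8 libraries 936 higher, quantile normalisation 139 and 53, array weights 5 lower, and the fixed replicate block 0 and 0. Leaving out each library gave 771 to 1911 higher and 6 to 19 lower, with the fewest of both without premigratory replicate 3. Pathway rows called were 3, against 1 with a pseudocount of 10, 0 with quantile normalisation and 5 with array weights. They were 0 with the fixed replicate block and 3 with the random one. The count was 5 without both premigratory replicate 1 and migratory replicate 5, and 0 to 7 with each library left out. Quantile normalisation moved the median log2 fold change of all genes from 2.67 to -0.0011, and turned NOTCH3 to -0.57, jag1b to -1.31 and dll4 to -2.40, none of them called in either fit. NOTCH1 ENSDARG00000103554 turned from -0.24 to 1.04 with the fixed replicate block and ranged from -2.49 to 1.92 with each library left out. The sign of notch2 turned without premigratory replicate 1, its range being -2.55 to 1.18, and was 1.95 without both named libraries. DLL1 ENSDARG00000010791 turned to 0.37 with a pseudocount of 10 and 1.32 with the fixed replicate block, and ranged from -0.87 to 0.53. This range lacks the fits without premigratory replicate 3 or migratory replicate 1, 4 or 6, where that row missed the filter. NOTCH3 ranged from 1.44 to 5.05 and DLD from 1.23 to 4.94. DLL1 ENSDARG00000020219 missed the filter, and gave no value, without migratory replicate 3, 4, 6 or 8. ADAM17 and NEURL1B lost their calls without both named libraries (adjusted p = 0.0512 and 0.0556 in limma), and NEURL1B without the filter (0.0594). The causes were not tested. With 4 premigratory libraries of 20 cells, standard errors near 2 log2 units limit every member, and depth in reads is unknown.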
